A study of Mus musculus with 12 samples.

Results

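The genes described here encode type VI collagen chains, collagens that bind the surface of large fibrils, and other collagens of vessel walls and basement membrane zones. They are Col6a1, Col6a2, Col6a3, Col6a6, Col8a1, Col12a1, Col14a1, Col15a1, Col16a1 and Col18a1, chosen by gene name. The choice was made with earlier results of these data known, which limits what counts over the members can show. All 10 of 10 had enough counts to be tested, out of 16981 tested genes and 78334 genes listed. Poly(A) RNA of the mouse left ventricle was sequenced in 3 groups of 4 animals, 1 library per animal. UNX/DOCA ITF2357 mice underwent UNX/DOCA surgery, a model of diastolic dysfunction made by removing a kidney and giving the mineralocorticoid deoxycorticosterone acetate, and from 4 weeks after surgery ate ITF2357 chow for 4 weeks. ITF2357, also called givinostat, inhibits histone deacetylases. UNX/DOCA vehicle mice had the same surgery and ate normal chow over that time, and Sham vehicle mice had a sham operation and normal chow. The sources used here do not give strain, sex or age, and the 3 groups include no sham-operated mice on ITF2357.

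Collagen VI is built from an alpha-1 chain, an alpha-2 chain and a further long chain, usually alpha-3 and sometimes a related chain such as alpha-6, and assembles into beaded microfilaments that link cells to the surrounding matrix. Collagens XII, XIV and XVI are fibril-associated collagens with interrupted triple helices, which bind the surface of larger fibrils. The other members are neither: collagen VIII is a short-chain network collagen of vessel walls, and collagens XV and XVIII are proteoglycans of basement membrane zones. In the heart, fibroblasts and vessel cells are the main sources of these proteins, while cardiomyocytes make up most of the tissue mass.

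Libraries held 23.4 to 34.9 M counts, and the members had between 15 counts (Col12a1 in a Sham vehicle library) and 2774 counts (Col6a1 in a UNX/DOCA vehicle library). Levels are given in CPM, which are counts relative to the size of the library (in M counts) after scaling by TMM factors. Markers of cardiomyocytes summed to 43203 to 47399 CPM in UNX/DOCA ITF2357, 39366 to 46914 CPM in UNX/DOCA vehicle and 41415 to 52448 CPM in Sham vehicle, with 7 of 7 markers measured and 0 at zero, so the label of heart muscle holds. UNX/DOCA vehicle replicate 3 stood apart, with the highest level of its group for 7 of the 10 members. Its neutrophil markers lay above the mean over all libraries by 3.90 on the log2 scale, where UNX/DOCA vehicle replicate 4 had 2.64. Markers of macrophages, activated fibroblasts and smooth muscle in replicate 3 lay above that mean by 1.24, 0.96 and 0.77. Without this library the edgeR test called 68 genes instead of 153 in UNX/DOCA ITF2357 against UNX/DOCA vehicle and 616 instead of 298 against Sham vehicle, and fold changes of the 10 members that it moves by over 1.5 times are given with and without it. In bulk tissue, fewer cells of a type and less RNA per cell cannot be told apart.

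Col6a1 and Col6a2 had the highest levels of the 10 genes. In Sham vehicle hearts, Col6a1 had a level of 14.8 ± 1.15 CPM per kilobase of transcript and Col6a2 one of 13.5 ± 0.853 (SD, n = 4), and their ranges overlapped. Col15a1 came next at 9.92 ± 1.51 CPM per kilobase, followed by Col8a1 at 3.68 ± 0.452, both clear of their neighbours' ranges. Below them Col6a3 had 2.21 ± 0.456, Col18a1 1.52 ± 0.201, Col14a1 1.43 ± 0.218, Col6a6 1.13 ± 0.101 and Col16a1 0.947 ± 0.139 CPM per kilobase, and neighbours among these 5 overlapped. Col12a1 was by far the lowest at 0.0801 ± 0.0402 CPM per kilobase. The same 4 genes led in the other groups, but Col6a6 was in the ninth place there, at 0.770 ± 0.156 CPM per kilobase in UNX/DOCA ITF2357 and 0.607 ± 0.0530 in UNX/DOCA vehicle. In both of those groups its range lay below that of Col16a1, which had 1.24 ± 0.285 CPM per kilobase in UNX/DOCA ITF2357 and 1.69 ± 0.599 in UNX/DOCA vehicle.

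**Figure D1:**
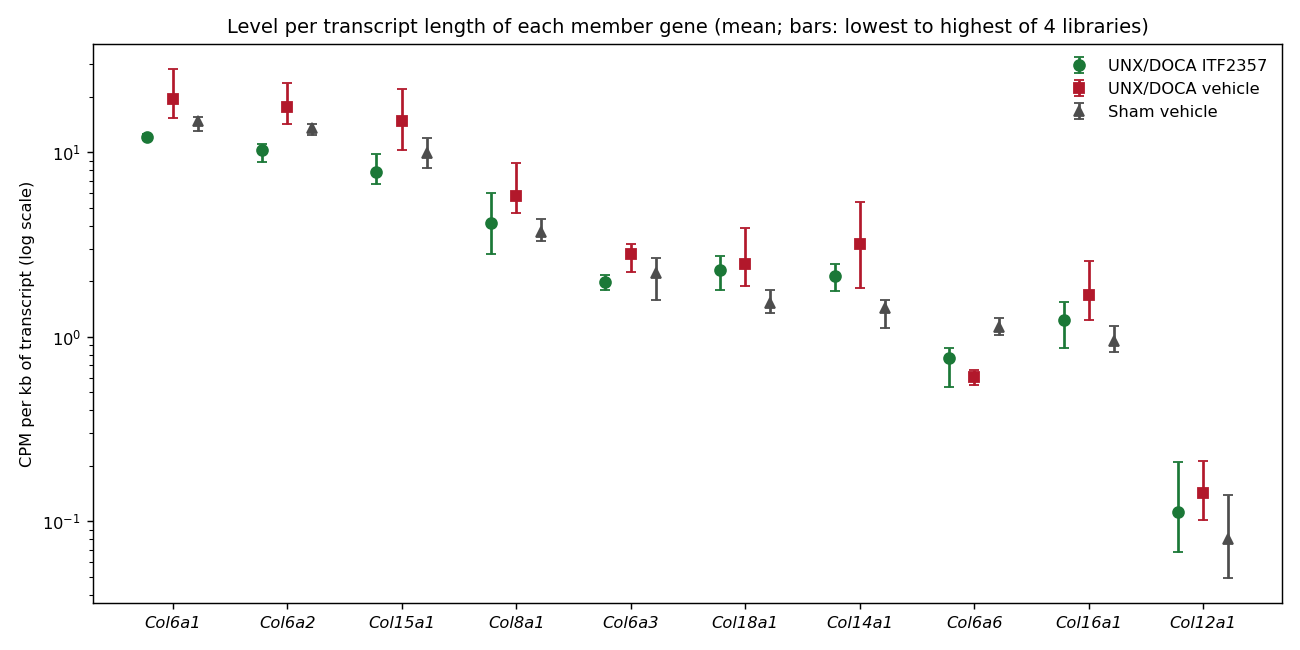
Level of each member in CPM per kilobase of its longest protein-coding transcript, on a log axis. Points are means of 4 libraries per group and bars run from the lowest to the highest library. Col6a1, Col6a2 and Col15a1 sit at the top in every group, and Col12a1, at about 0.1 CPM per kilobase, at the bottom.

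The 250 bases before the most upstream RefSeq start of the 4 collagen VI genes are shown because these genes encode chains of one protein, and the fold change of UNX/DOCA vehicle against Sham vehicle had the opposite sign for Col6a6. All lie on the minus strand of GRCm38.p6 (RefSeq), and RefSeq had such a window for 8 of the 10 members, Col12a1 and Col14a1 having none in the table used. The windows are chr10:76726045-76726294 for Col6a1, chr10:76623631-76623880 for Col6a2, chr1:90843972-90844221 for Col6a3 and chr9:105828086-105828335 for Col6a6. Capitals mark matches of the GC box (GGGCGG on either strand) and of the AP-1 motif (TGANTCA).
Col6a1: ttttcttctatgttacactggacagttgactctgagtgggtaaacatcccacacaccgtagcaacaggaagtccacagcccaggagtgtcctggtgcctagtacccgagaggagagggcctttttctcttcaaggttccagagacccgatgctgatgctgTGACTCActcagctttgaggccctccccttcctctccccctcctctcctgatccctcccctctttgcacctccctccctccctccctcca
Col6a2: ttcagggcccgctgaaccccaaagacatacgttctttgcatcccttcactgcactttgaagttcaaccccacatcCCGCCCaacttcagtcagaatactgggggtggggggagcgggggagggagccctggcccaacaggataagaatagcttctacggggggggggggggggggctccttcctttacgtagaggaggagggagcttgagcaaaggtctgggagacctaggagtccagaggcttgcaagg
Col6a3: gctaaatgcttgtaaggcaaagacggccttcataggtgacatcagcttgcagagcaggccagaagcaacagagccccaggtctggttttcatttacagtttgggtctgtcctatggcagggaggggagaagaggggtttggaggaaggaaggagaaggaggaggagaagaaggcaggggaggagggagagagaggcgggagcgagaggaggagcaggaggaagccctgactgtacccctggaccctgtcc
Col6a6: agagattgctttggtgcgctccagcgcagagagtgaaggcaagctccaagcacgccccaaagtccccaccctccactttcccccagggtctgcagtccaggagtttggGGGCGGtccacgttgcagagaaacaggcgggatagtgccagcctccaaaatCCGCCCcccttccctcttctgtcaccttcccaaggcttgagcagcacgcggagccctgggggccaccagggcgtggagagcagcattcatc
The GC box matched once in Col6a2 and at 2 places in Col6a6, with no match in Col6a1 or Col6a3, and 33.0% of 27025 promoter windows of this length hold it. The AP-1 motif matched once, in Col6a1, and 6.85% of windows hold it. The TATA box (TATAAA) and the CCAAT box (CCAAT) matched in none of the 4, against 13% and 34.5% of windows, and the E-box (CANNTG) matched once, in Col6a1, against 66.1%. Both strands were searched, and no matches of different motifs overlapped in these 4. Their GC content was 56.0% in Col6a1, 59.2% in Col6a2, 57.2% in Col6a3 and 62.4% in Col6a6, where the median window has 52.0%. Col6a1 and Col6a2 are direct neighbours among protein-coding genes on chromosome 10, and Col6a6 lies beside Col6a5 on chromosome 9.

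Col6a2, the alpha-2 chain, was the 1 member that passed the test, and it fell in UNX/DOCA ITF2357 hearts. It had 46.3, 51.3, 51.7 and 41.1 CPM in UNX/DOCA ITF2357 replicates 1 to 4, against 86.8, 66.0, 109.8 and 66.4 CPM in UNX/DOCA vehicle and 61.5, 66.5, 57.8 and 65.4 CPM in Sham vehicle. All 4 ITF2357 libraries were below all 8 of the others, while the UNX/DOCA vehicle libraries overlapped those of Sham vehicle. UNX/DOCA ITF2357 averaged 47.6 ± 4.99 CPM against 82.3 ± 20.8 CPM in UNX/DOCA vehicle (SD, n = 4 each), a fold of 0.579 (log2 fold change -0.79 ± 0.15 SE; edgeR quasi-likelihood test, adjusted p = 0.0349). Without UNX/DOCA vehicle replicate 3 the log2 fold change was -0.62 (adjusted p = 0.0336). The call rested on other single libraries: the adjusted p was 0.0984 without UNX/DOCA ITF2357 replicate 1, 0.0651 without replicate 3 and 0.0782 without replicate 4 of that group. It was 0.0508 without Sham vehicle replicate 1, 0.0529 without replicate 2 and 0.0532 without replicate 4. The call was also lost in a fit of the 2 compared groups alone, without Sham vehicle (edgeR adjusted p = 0.132). It was lost too without UNX/DOCA vehicle replicates 3 and 4 (0.0707) and with a replicate block (0.0572). Over all 22 alternatives the log2 fold change lay between -0.88 and -0.59, the adjusted p between 0.000137 and 0.132, and 13 kept the call. Against Sham vehicle (62.8 ± 3.97 CPM) the log2 fold change of UNX/DOCA ITF2357 was -0.40 ± 0.15 and did not pass (edgeR adjusted p = 0.153, or 0.0498 without UNX/DOCA vehicle replicate 3, 0.0458 with limma-voom and 0.0418 in a fit of those groups alone). UNX/DOCA vehicle had 0.39 ± 0.15 against Sham vehicle (edgeR adjusted p = 0.229), or 0.22 without replicate 3.

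Col6a1, the alpha-1 chain, had levels close to those of Col6a2. It had 48.4, 51.7, 51.6 and 47.6 CPM in UNX/DOCA ITF2357, against 78.6, 62.9, 115.3 and 63.4 CPM in UNX/DOCA vehicle and 63.6, 61.9, 53.6 and 63.2 CPM in Sham vehicle. The ITF2357 libraries were again the 4 lowest of 12, and their spread was the narrowest, with a coefficient of variation of 4.30%, with 30.7% in UNX/DOCA vehicle against 7.76% in Sham vehicle. The log2 fold change was -0.68 ± 0.16 for UNX/DOCA ITF2357 against UNX/DOCA vehicle, which did not pass (edgeR adjusted p = 0.0643), and -0.28 ± 0.16 against Sham vehicle (adjusted p = 0.348). The first passed with DESeq2 (adjusted p = 0.00429), with no filter on low counts (0.0302) and without UNX/DOCA vehicle replicate 2 (0.0384), and was -0.46 without UNX/DOCA vehicle replicate 3 (0.0524). UNX/DOCA vehicle had 0.40 ± 0.16 against Sham vehicle (edgeR adjusted p = 0.256), or 0.17 without replicate 3.

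Col6a3, the long alpha-3 chain that usually completes the trimer, had 18.2, 21.4, 21.97 and 18.3 CPM in UNX/DOCA ITF2357, against 30.7, 27.4, 32.1 and 22.6 CPM in UNX/DOCA vehicle and 27.1, 23.1, 16.02 and 23.3 CPM in Sham vehicle. The ITF2357 libraries lay below all UNX/DOCA vehicle libraries and among those of Sham vehicle. The log2 fold change against UNX/DOCA vehicle was -0.50 ± 0.15 (edgeR adjusted p = 0.117, or 0.0440 with DESeq2). UNX/DOCA ITF2357 had -0.16 ± 0.15 against Sham vehicle (adjusted p = 0.584), and UNX/DOCA vehicle had 0.33 ± 0.15 against Sham vehicle (adjusted p = 0.305), which were -0.30 and 0.19 without Sham vehicle replicate 3. Summed over these 3 chains, levels ran from 107 to 125 CPM in UNX/DOCA ITF2357, from 152 to 257 CPM in UNX/DOCA vehicle and from 127 to 152 CPM in Sham vehicle.

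The proportions of the 3 main chains overlapped between the groups. The ratio of Col6a2 to Col6a1, each per kilobase, was 0.840 ± 0.0559 in UNX/DOCA ITF2357, 0.915 ± 0.0556 in UNX/DOCA vehicle, against 0.915 ± 0.0456 in Sham vehicle (SD, n = 4). The ratio of Col6a3 to Col6a1 was 0.162 ± 0.00955, 0.148 ± 0.0269 and 0.149 ± 0.0211 in the same order of groups. No test was made of these ratios.

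Col6a6, the alternative alpha-6 chain, had the opposite order of the UNX/DOCA vehicle and Sham vehicle groups. It had 7.47, 4.71, 7.28 and 7.58 CPM in UNX/DOCA ITF2357, against 4.79, 5.79, 5.65 and 5.11 CPM in UNX/DOCA vehicle and 11.0, 9.50, 8.94 and 10.1 CPM in Sham vehicle. Every Sham vehicle library was above every UNX/DOCA library, and 3 of the 4 ITF2357 libraries were above all UNX/DOCA vehicle libraries, replicate 2 being below them. UNX/DOCA vehicle averaged 5.33 ± 0.466 CPM against 9.88 ± 0.888 CPM in Sham vehicle (SD, n = 4 each), a fold of 0.540 (log2 fold change -0.89 ± 0.15), which did not pass over all genes (edgeR adjusted p = 0.0786). That value passed in 6 of 22 alternatives: DESeq2 (adjusted p = 4.02e-05), limma-voom (0.0188), no filter, and without UNX/DOCA ITF2357 replicate 1 (0.0458), UNX/DOCA ITF2357 replicate 2 (0.0355) or UNX/DOCA vehicle replicate 1 (0.0305). Its log2 fold change stayed between -0.95 and -0.84 in all 22. UNX/DOCA ITF2357 had 0.34 ± 0.15 against UNX/DOCA vehicle (edgeR adjusted p = 0.250) and -0.55 ± 0.15 against Sham vehicle (adjusted p = 0.0720, or 0.0118 with DESeq2, 0.0223 with limma-voom and 0.0489 with no filter). A predicted gene on the opposite strand of Col6a6, Gm38314, had 0 counts in all libraries.

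Per kilobase, Col6a6 made up 28.05% ± 5.65 of the sum of Col6a3 and Col6a6 in UNX/DOCA ITF2357, 18.1% ± 2.47 in UNX/DOCA vehicle, against 34.1% ± 3.39 in Sham vehicle (SD, n = 4). The highest UNX/DOCA vehicle library, at 20.6%, was below the lowest Sham vehicle library, at 31.9%, and the ITF2357 libraries, from 20.2% to 32.3%, overlapped both groups. Col6a6 relative to Pdgfra, a receptor that marks cardiac fibroblasts, was 0.160 ± 0.0347 in UNX/DOCA ITF2357, 0.153 ± 0.0242 in UNX/DOCA vehicle, against 0.236 ± 0.0241 in Sham vehicle as a ratio of CPM. All Sham vehicle libraries were above all others on that ratio too. Pdgfra itself averaged 42.3 ± 4.76 CPM, 35.5 ± 5.64 CPM and 42.1 ± 4.15 CPM in the same order of groups. It is 1 of 9 fibroblast markers, of which 5 were above 0 and 4 below in UNX/DOCA vehicle against Sham vehicle. The ratio rests on that 1 marker, and ratios to the other fibroblast markers were not made.

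**Figure D2:**
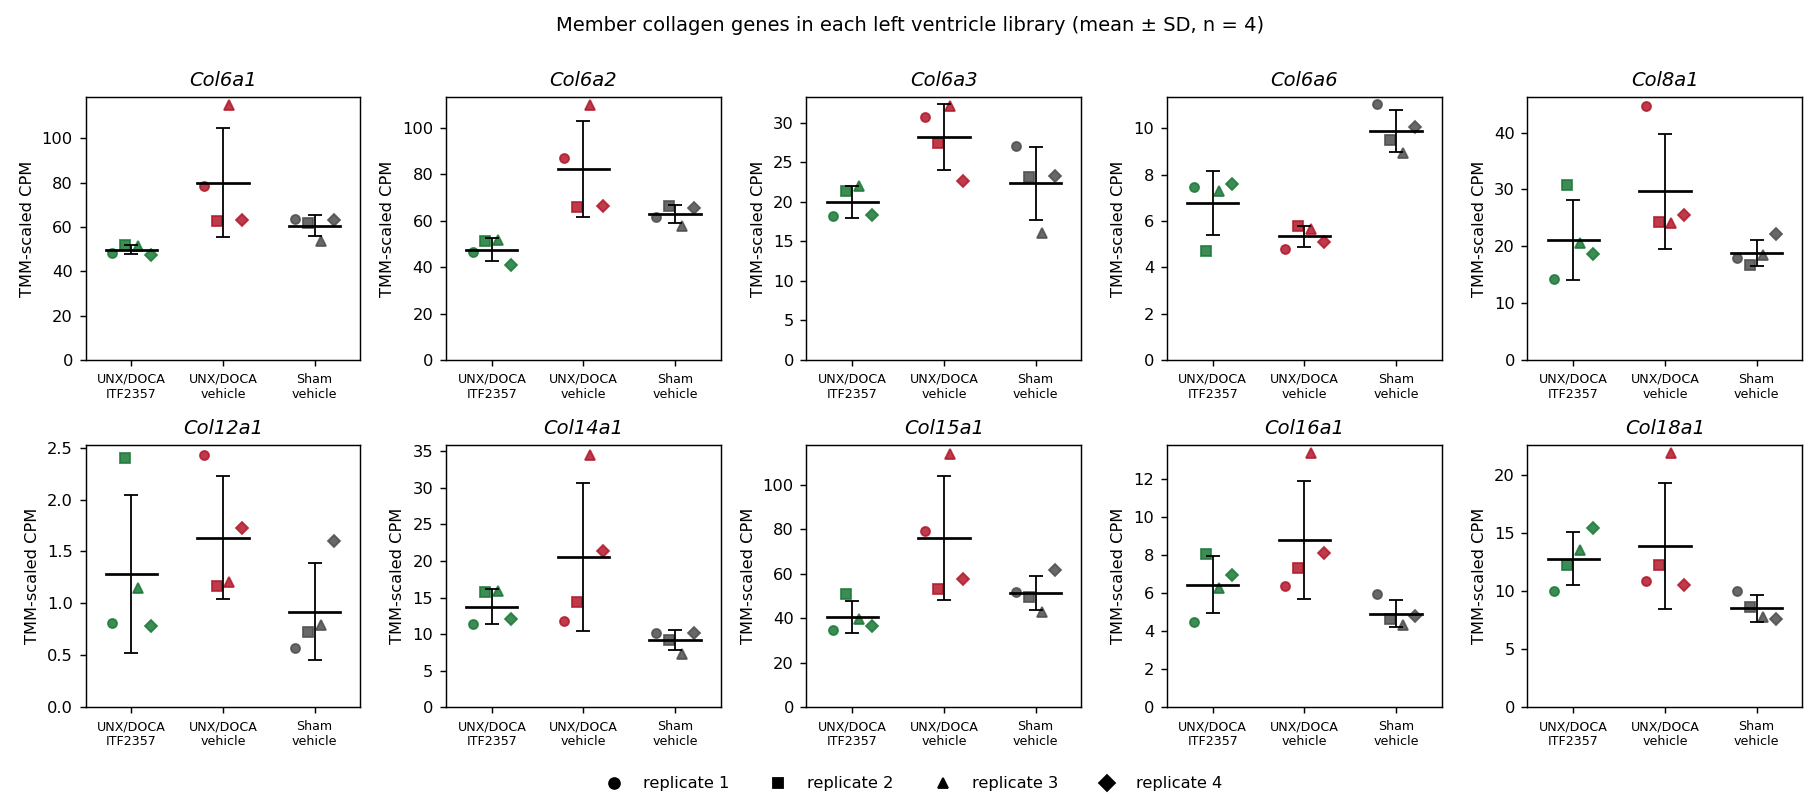
CPM of each of the 10 members in every library by group, with mean and SD (n = 4). For Col6a1, Col6a2, Col6a3 and Col15a1 all UNX/DOCA ITF2357 points lie below all UNX/DOCA vehicle points, and for Col6a6 all Sham vehicle points lie above the rest.

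**Figure D3:**
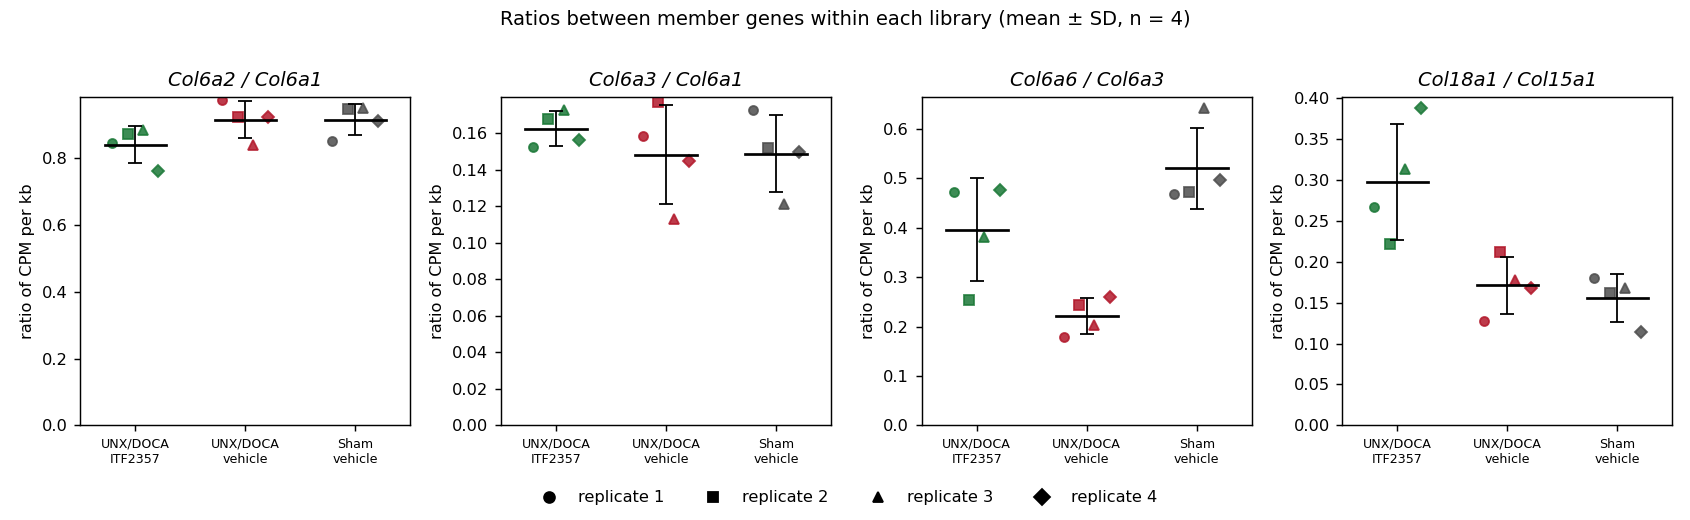
Ratios between pairs of members within each library, from CPM per kilobase, with mean and SD (n = 4 per group). Col6a2 over Col6a1 and Col6a3 over Col6a1 overlap between groups, Col6a6 over Col6a3 is lower in all UNX/DOCA vehicle than in all Sham vehicle libraries, and Col18a1 over Col15a1 is higher in all UNX/DOCA ITF2357 libraries than in all others.

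Col15a1, whose product anchors basement membranes of muscle and capillaries to the matrix, had 34.6, 50.8, 39.9 and 36.7 CPM in UNX/DOCA ITF2357, against 79.3, 53.3, 113.9 and 57.7 CPM in UNX/DOCA vehicle and 51.6, 49.5, 42.6 and 61.5 CPM in Sham vehicle. All ITF2357 libraries were below all UNX/DOCA vehicle libraries, by a small margin for ITF2357 replicate 2, and they overlapped Sham vehicle. The fold against UNX/DOCA vehicle was 0.534 (log2 fold change -0.91 ± 0.22), the largest of the 10 members in size, and did not pass (edgeR adjusted p = 0.0711). It passed with DESeq2 (adjusted p = 0.00354) and without UNX/DOCA vehicle replicate 2 (0.0387), and was -0.65 without UNX/DOCA vehicle replicate 3 (0.108). Against Sham vehicle, UNX/DOCA vehicle had 0.57 ± 0.22 (edgeR adjusted p = 0.241), or 0.31 without replicate 3. A gene on the opposite strand, Gm12426, had 96 counts over the 12 libraries.

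Col18a1, the precursor of the antiangiogenic fragment endostatin, had 10.0, 12.2, 13.5 and 15.4 CPM in UNX/DOCA ITF2357, against 10.9, 12.2, 21.9 and 10.5 CPM in UNX/DOCA vehicle and 10.0, 8.66, 7.75 and 7.57 CPM in Sham vehicle. Both UNX/DOCA groups were mostly above Sham vehicle, and the high value of the series was UNX/DOCA vehicle replicate 3. UNX/DOCA vehicle had a log2 fold change of 0.70 ± 0.22 against Sham vehicle (edgeR adjusted p = 0.174), or 0.40 without replicate 3. UNX/DOCA ITF2357 had -0.11 ± 0.22 against UNX/DOCA vehicle (adjusted p = 0.822), which turned to 0.18 without that library and was -0.22 without UNX/DOCA vehicle replicate 4, and 0.59 ± 0.22 against Sham vehicle (adjusted p = 0.168, or 0.0400 without that library and 0.0403 with limma-voom). Col18a1 thus had a sign opposite to that of Col15a1 in the ITF2357 against Sham vehicle comparison, where Col15a1 had -0.34 ± 0.22 (edgeR adjusted p = 0.416). The ratio of Col18a1 to Col15a1 per kilobase was 0.298 ± 0.0709 in UNX/DOCA ITF2357, 0.171 ± 0.0349 in UNX/DOCA vehicle, against 0.156 ± 0.0290 in Sham vehicle (SD, n = 4). The lowest ITF2357 library, at 0.222, was above the highest UNX/DOCA vehicle library, at 0.212, and no test was made of this ratio.

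Among the fibril-associated collagens, Col14a1, which binds the surface of fibrils and limits their lateral growth, had 11.4, 15.7, 15.9 and 12.01 CPM in UNX/DOCA ITF2357, against 11.8, 14.4, 34.5 and 21.4 CPM in UNX/DOCA vehicle and 10.2, 9.28, 7.24 and 10.2 CPM in Sham vehicle. All 8 UNX/DOCA libraries were above all Sham vehicle libraries, and UNX/DOCA vehicle replicates 3 and 4 were the highest. UNX/DOCA vehicle averaged 20.5 ± 10.2 CPM against 9.24 ± 1.40 CPM in Sham vehicle (SD, n = 4 each), a fold of 2.22 (log2 fold change 1.15 ± 0.28), which did not pass (edgeR adjusted p = 0.117). It passed with DESeq2 (adjusted p = 0.00449), limma-voom (0.0370) and without UNX/DOCA vehicle replicate 1 (0.0298), and was 0.78 without replicate 3 and 0.51 without replicates 3 and 4. UNX/DOCA ITF2357 had -0.57 ± 0.28 against UNX/DOCA vehicle (edgeR adjusted p = 0.292), which was -0.21 without UNX/DOCA vehicle replicate 3 and 0.064 without replicates 3 and 4. It had 0.58 ± 0.28 against Sham vehicle (adjusted p = 0.272).

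Col16a1, a minor fibril-associated collagen that binds integrins, had 4.51 to 8.05 CPM in UNX/DOCA ITF2357, 6.38 to 13.3 CPM in UNX/DOCA vehicle and 4.31 to 5.97 CPM in Sham vehicle. Its UNX/DOCA vehicle libraries were all above the Sham vehicle libraries, while ITF2357 overlapped both. UNX/DOCA vehicle had a log2 fold change of 0.83 ± 0.23 against Sham vehicle (edgeR adjusted p = 0.136), which was 0.56 without replicate 3 and passed with DESeq2 (adjusted p = 0.0248) and limma-voom (0.0498). UNX/DOCA ITF2357 had -0.44 ± 0.23 against UNX/DOCA vehicle (edgeR adjusted p = 0.320), or -0.18 without UNX/DOCA vehicle replicate 3. Against Sham vehicle it had 0.39 ± 0.23 (adjusted p = 0.377), or 0.26 without ITF2357 replicate 2.

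Col12a1, found on fibrils of tissues under tension, was the member with the fewest reads, 15 to 79 counts per library. It had 0.79 to 2.40 CPM in UNX/DOCA ITF2357, 1.16 to 2.43 CPM in UNX/DOCA vehicle and 0.57 to 1.60 CPM in Sham vehicle. All 3 groups overlapped, and the log2 fold changes had the largest errors of the 10 members: 0.83 ± 0.42 for UNX/DOCA vehicle against Sham vehicle, -0.33 ± 0.41 for UNX/DOCA ITF2357 against UNX/DOCA vehicle and 0.51 ± 0.42 for UNX/DOCA ITF2357 against Sham vehicle (edgeR adjusted p = 0.353, 0.707 and 0.539). Single libraries moved these values: with 1 library left out, the second lay between -0.82 (without ITF2357 replicate 2) and -0.067 (without UNX/DOCA vehicle replicate 1). The third lay between 0.0040 (without ITF2357 replicate 2) and 0.90 (without Sham vehicle replicate 4), and the first between 0.57 and 1.22.

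Col8a1, a short-chain collagen made by vessel wall and activated mesenchymal cells, had 14.3, 30.8, 20.5 and 18.7 CPM in UNX/DOCA ITF2357, against 44.7, 24.3, 24.1 and 25.5 CPM in UNX/DOCA vehicle and 17.9, 16.8, 18.4 and 22.1 CPM in Sham vehicle. All UNX/DOCA vehicle libraries were above all Sham vehicle libraries, replicate 1 far above, and the ITF2357 libraries spread across both. UNX/DOCA vehicle had a log2 fold change of 0.66 ± 0.24 against Sham vehicle (edgeR adjusted p = 0.222), or 0.38 without replicate 1. UNX/DOCA ITF2357 had -0.49 ± 0.24 against UNX/DOCA vehicle (adjusted p = 0.296), or -0.22 without UNX/DOCA vehicle replicate 1 and -0.73 without ITF2357 replicate 2. It had 0.17 ± 0.24 against Sham vehicle (adjusted p = 0.739), which turned to -0.078 without ITF2357 replicate 2 and was 0.31 without ITF2357 replicate 1.

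Counted over the members, UNX/DOCA vehicle against Sham vehicle called 0 of 10 with edgeR at an adjusted p under 0.05, where 0.0% of the 16981 tested genes were called. DESeq2 called 3 members and 554 genes, 1.27% of the 43786 with a DESeq2 p-value, which is a wider base than the 16981. Limma-voom called 3 members and 3.29% of the 16981. In both tools Col14a1 and Col16a1 were higher and Col6a6 lower. At an unadjusted p under 0.05, 8 members were higher and 1 lower, where 15.9% of all genes passed, 9.42% higher and 6.47% lower. The groups did not overlap for 5 members, 4 higher (Col8a1, Col14a1, Col16a1 and Col18a1) and 1 lower (Col6a6), where 9.39% of all genes had no overlap, 5.03% higher and 4.36% lower. The log2 fold change was above 0 for 9 members, where it was above 0 for 51.1% of all genes. The median log2 fold change was 0.61 over the members and 0.01 over all tested genes. These counts and the median include UNX/DOCA vehicle replicate 3, the highest of its group for 7 members. Without it the log2 fold change was 0.17 for Col6a1, 0.22 for Col6a2, 0.27 for Col6a3, 0.31 for Col15a1 and 0.40 for Col18a1. It was then 0.56 for Col16a1, 0.75 for Col8a1, 0.78 for Col14a1, 0.95 for Col12a1 and -0.92 for Col6a6.

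UNX/DOCA ITF2357 against UNX/DOCA vehicle called 1 of 10 members, Col6a2, lower, where 0.901% of all genes were called. Of all genes 0.459% (78) were called higher and 0.442% (75) lower (108 and 65 with upper-quartile scaling). DESeq2 called 4 members lower (Col6a1, Col6a2, Col6a3 and Col15a1) and 861 genes, 1.97% of its wider base of 43786. Limma-voom called Col6a2 and 1.41% of the 16981. At an unadjusted p under 0.05, 4 members were lower (Col6a1, Col6a2, Col6a3 and Col15a1) and 1 higher (Col6a6), where 18.5% of all genes passed, 9.8% lower and 8.7% higher. Those 4 members were also the ones whose groups did not overlap, where 9.31% of all genes had no overlap, 4.95% higher and 4.36% lower. The log2 fold change was above 0 for 1 member and for 49.8% of all genes. The median log2 fold change was -0.49 over the members and 0.00 over all tested genes. Without UNX/DOCA vehicle replicate 3 the log2 fold change was -0.46 for Col6a1, -0.62 for Col6a2, -0.44 for Col6a3, -0.65 for Col15a1 and 0.36 for Col6a6. It was then -0.58 for Col8a1, -0.45 for Col12a1, -0.21 for Col14a1, -0.18 for Col16a1 and 0.18 for Col18a1. UNX/DOCA vehicle libraries enter both of these comparisons, so the signs of the members in one are tied to those in the other.

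UNX/DOCA ITF2357 against Sham vehicle called 0 of 10 members with edgeR, where 1.75% of all genes were called. Of all genes 0.913% (155) were called higher and 0.842% (143) lower (214 and 89 with upper-quartile scaling, 172 and 98 with library totals). DESeq2 called 1 member, Col6a6, lower, and 1068 genes, 2.44% of its wider base of 43786. Limma-voom called 3, Col18a1 higher and Col6a2 and Col6a6 lower, and 9.0% of the 16981. At an unadjusted p under 0.05, 1 member was higher and 2 lower, where 20.1% of all genes passed, 10.7% higher and 9.39% lower. The groups did not overlap for 4 members (Col14a1 higher, Col6a1, Col6a2 and Col6a6 lower), where 13.7% of all genes had no overlap, 7.27% higher and 6.39% lower. The log2 fold change was above 0 for 5 members and for 52.3% of all genes. The median log2 fold change was 0.00 over the members and 0.01 over all tested genes.

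**Figure D4:**
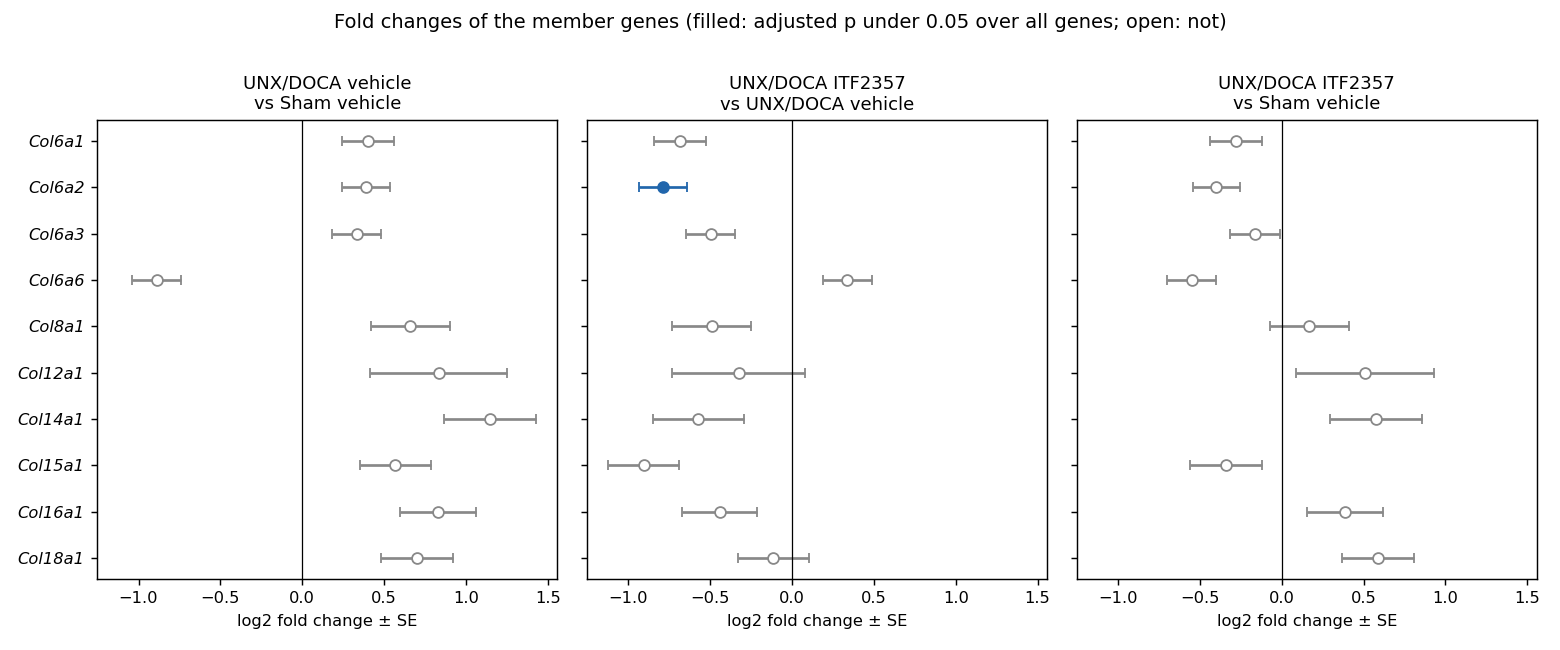
Log2 fold change with its standard error for each member in the 3 comparisons between groups, from the edgeR fit over 12 libraries. Filled points passed at an adjusted p under 0.05, and Col6a2 for UNX/DOCA ITF2357 against UNX/DOCA vehicle, at -0.79, is the one that did.

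The libraries also show which members varied together. Over the 12 libraries, the closest of the 45 pairs of members were Col6a1 with Col6a2 (root mean square difference of z-scored log2 CPM of 0.246), Col6a1 with Col15a1 (0.258) and Col6a2 with Col15a1 (0.303), followed by Col14a1 with Col16a1 (0.377) and Col8a1 with Col12a1 (0.474). Of 9960 genes at 5 CPM or more, the one most like Col6a1 was Col6a2, and Col15a1 came next. Col6a3 was closest to Smarcb1 (0.339), a chromatin remodelling subunit, and Sumf2 (0.361), and its distance to Col6a1 was 0.562. Col15a1 had Col6a1 and then Col1a1 (0.298), a chain of the main fibrillar collagen, as its closest genes. Col14a1 was closest to S100a6 (0.285), a calcium-binding protein, and Col16a1 to Eno1 (0.280), a glycolytic enzyme. Col6a6 was closest to Kcnj3 (0.341), a potassium channel subunit of cardiomyocytes, which averaged 38.3 CPM in UNX/DOCA ITF2357, 35.2 CPM in UNX/DOCA vehicle and 55.2 CPM in Sham vehicle. Col18a1 was closest to Neat1 (0.363), a nuclear long noncoding RNA. These distances hold group differences and single libraries alike.

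**Figure D5:**
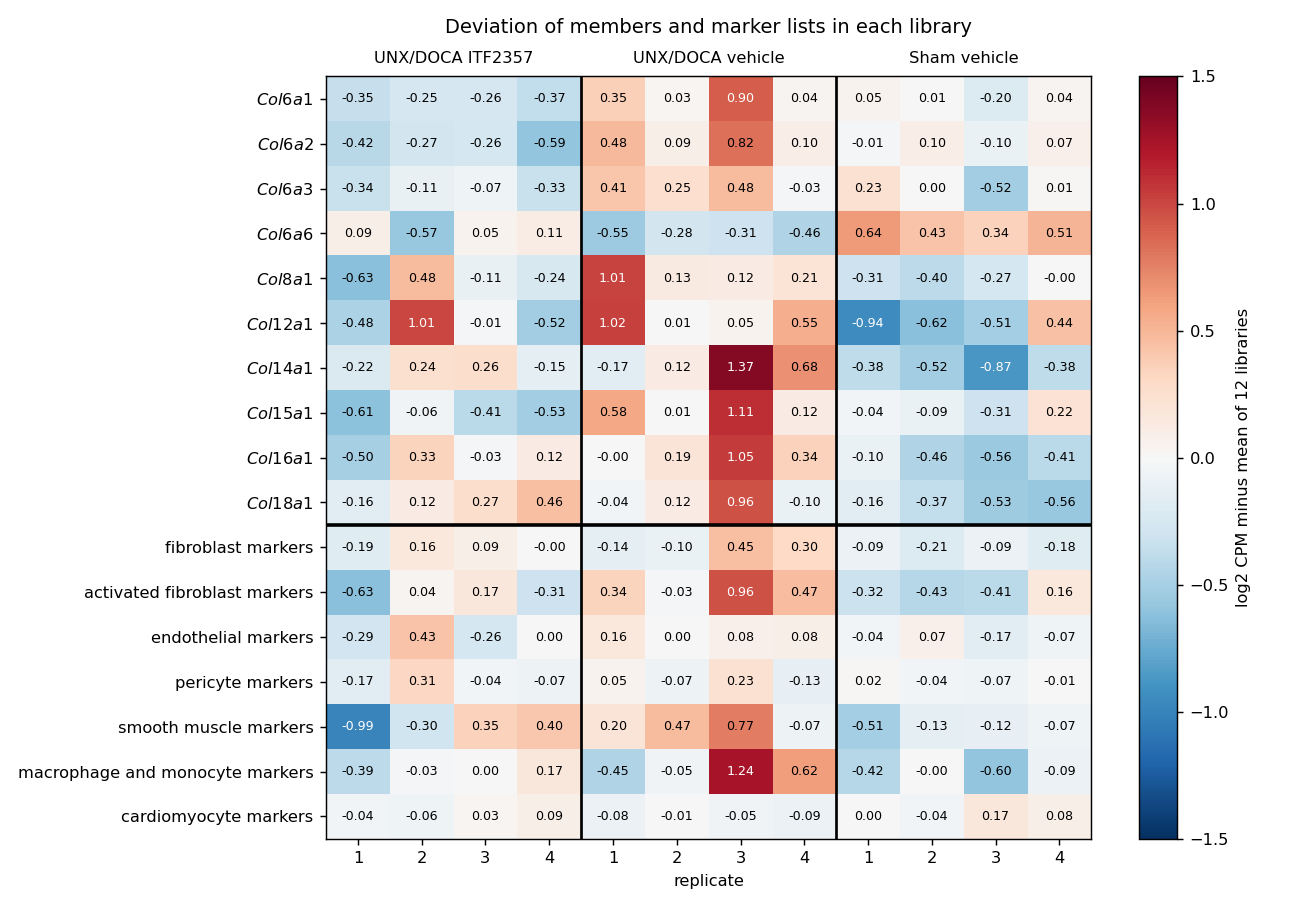
Log2 deviation of each member in each library from that gene's mean over the 12 libraries, with the mean deviation of 7 marker lists in the lower rows. Member values run from -0.63 to 1.01 in UNX/DOCA ITF2357, from -0.55 to 1.37 in UNX/DOCA vehicle and from -0.94 to 0.64 in Sham vehicle, and UNX/DOCA vehicle replicate 3 is high for most members.

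Other genes of the matrix were counted in 8 lists. None of the 8 lists had a call by edgeR in UNX/DOCA vehicle against Sham vehicle. There the median log2 fold change was 0.58 over 17 activated fibroblast genes (16 above 0), 0.33 over 21 TGF-beta targets, 0.32 over 18 resident fibroblast genes, 0.32 over 8 fibrillar collagens, 0.27 over 23 matrix partners and receptors, 0.17 over 31 genes of collagen biosynthesis, 0.13 over 7 related collagens and 0.00 over 18 basement membrane genes. Without UNX/DOCA vehicle replicate 3 these medians, over the genes then tested, were 0.30 for activated fibroblast genes, 0.19 for TGF-beta targets, 0.14 for resident fibroblast genes, 0.11 for matrix partners and receptors, 0.056 for fibrillar collagens, 0.051 for related collagens, 0.042 for biosynthesis genes and -0.047 for basement membrane genes, with 0 calls. Lum, which encodes a proteoglycan of fibril surfaces, had the smallest p among the partners, with 78.0 ± 7.996 CPM in UNX/DOCA vehicle against 54.8 ± 6.95 CPM in Sham vehicle (SD, n = 4 each; edgeR adjusted p = 0.0998).

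In UNX/DOCA ITF2357 against UNX/DOCA vehicle, 2 of 18 basement membrane genes fell, where 0.442% of all genes were called lower, and they were the main chains of collagen IV. Col4a1 averaged 299.8 ± 74.8 CPM in UNX/DOCA ITF2357 against 528 ± 66.3 CPM in UNX/DOCA vehicle (log2 fold change -0.82 ± 0.16, edgeR adjusted p = 0.0395). Col4a2 had -0.75 ± 0.16 (adjusted p = 0.0496). Among 31 biosynthesis genes, the crosslinking enzymes Loxl2 (-0.97 ± 0.18, adjusted p = 0.0349) and Loxl1 (-0.67 ± 0.14, adjusted p = 0.0496) fell, and Loxl2 was also the 1 call among 21 TGF-beta targets. These calls rested on single libraries: with 1 library left out, Loxl2 kept its call in 5 of 12 fits, Col4a1 and Col4a2 in 2 each and Loxl1 in 1, and the edgeR adjusted p lay between 0.0134 and 0.126. Without UNX/DOCA vehicle replicate 3 no gene of the 8 lists was called, and the log2 fold change was -0.80 for Col4a1, -0.62 for Col4a2, -0.89 for Loxl2 and -0.57 for Loxl1 (edgeR adjusted p = 0.0865, 0.0941, 0.0693 and 0.0941). The 8 fibrillar collagens had 0 calls and a median of -0.60, with Col3a1 at 117 ± 24.4 CPM in UNX/DOCA ITF2357 against 234 ± 70.4 CPM in UNX/DOCA vehicle (adjusted p = 0.0584). Activated fibroblast genes had 0 calls of 17 and a median of -0.53, with 16 below 0. Matrix partners and receptors had 0 of 23 and -0.20, resident fibroblast genes 0 of 18 and -0.12, and related collagens 0 of 7 and 0.23. The medians were -0.16 over basement membrane genes, -0.21 over TGF-beta targets and -0.13 over biosynthesis genes. Without UNX/DOCA vehicle replicate 3 the medians were -0.50 for fibrillar collagens, -0.39 for activated fibroblast genes, -0.14 for matrix partners and receptors, -0.037 for resident fibroblast genes, 0.14 for related collagens and between -0.13 and -0.11 for the other 3 lists.

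Against Sham vehicle, UNX/DOCA ITF2357 had 1 call each in 3 lists, of 7 related collagens, 17 activated fibroblast genes and 31 biosynthesis genes, where 1.75% of all genes were called, 0.913% higher and 0.842% lower. Col8a2, the partner chain of Col8a1, rose to 0.807 ± 0.328 CPM in UNX/DOCA ITF2357, against 0.244 ± 0.106 CPM in Sham vehicle (log2 fold change 1.71 ± 0.38, edgeR adjusted p = 0.0418). Its libraries ran from 0.590 to 1.29 CPM in UNX/DOCA ITF2357 and from 0.119 to 0.342 CPM in Sham vehicle. At the mean depth 1 CPM is 28.3 counts, so the Sham vehicle level of Col8a2 and the size of its fold rest on few counts. Ddah1 rose among activated fibroblast genes (0.63 ± 0.12, adjusted p = 0.0281), and Serpinh1, the collagen chaperone, fell (-0.63 ± 0.14, adjusted p = 0.0418). With 1 library left out, Ddah1 kept its call in 6 of 12 fits, Serpinh1 in 4 and Col8a2 in 2, with edgeR adjusted p between 0.0157 and 0.136. The other 5 lists had 0 calls; without UNX/DOCA vehicle replicate 3 the 3 genes passed, and Col5a1 (-0.51) and Lamb2 (-0.42) did too (edgeR adjusted p = 0.0470 and 0.0438). Medians were -0.44 over fibrillar collagens and between -0.12 and 0.13 over the other 7 lists.

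The summed levels of cell type markers are set beside these values as ranges over the 4 libraries of a group. Activated fibroblast markers summed to 138 to 339.6 CPM in UNX/DOCA ITF2357, 339.7 to 550.4 CPM in UNX/DOCA vehicle and 264 to 461 CPM in Sham vehicle, with 7 of 7 below 0 in UNX/DOCA ITF2357 against UNX/DOCA vehicle and 0 called. Smooth muscle markers summed to 199.6 to 397 CPM, 416 to 601 CPM and 370.3 to 526 CPM in the same order of groups, with 4 of the 5 tested, 1 called lower in UNX/DOCA ITF2357 against Sham vehicle and 0 called against UNX/DOCA vehicle. Acta2 is on both of these lists and makes up a large part of both sums, so they are not independent. It averaged 149 ± 75.5 CPM, 307 ± 60.3 CPM and 288 ± 70.8 CPM in that order (SD, n = 4 each). In UNX/DOCA ITF2357 against Sham vehicle, 4 activated fibroblast markers were above 0 and 3 below (median log2 fold change 0.19). Of the tested smooth muscle markers, 2 were above 0 there and 2 below (median 0.088). Lower sums than in Sham vehicle thus do not hold for most of either list. Macrophage and monocyte markers summed to 173 to 301 CPM, 176 to 496 CPM and 167 to 219 CPM, with 10 of 10 above 0 in UNX/DOCA vehicle against Sham vehicle and 0 called. General fibroblast markers, 9 of 9 tested, summed to 1442 to 1732 CPM, 1463 to 2053 CPM and 1477 to 1709 CPM, and overlapped throughout. Endothelial markers summed to 629 to 1053 CPM, 823 to 877 CPM and 694 to 829 CPM. None of the markers in these 5 lists was at 0 in a group.

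Some further lists also differed in range between the groups. Skeletal muscle markers summed to 1057 to 2173 CPM in UNX/DOCA ITF2357, 2707 to 3802 CPM in UNX/DOCA vehicle and 1348 to 2570 CPM in Sham vehicle, with 0 of 4 tested markers called and Myh4 at 0 in UNX/DOCA ITF2357. In UNX/DOCA vehicle against Sham vehicle, 1 tested marker was above 0 and 3 below (median log2 fold change -0.10). The higher sum of UNX/DOCA vehicle thus does not hold for most of this list. B cell markers summed to 0.361 to 0.776 CPM, 1.03 to 3.61 CPM and 1.78 to 3.84 CPM in the same order of groups. Of their 3 tested markers, 2 were called lower by edgeR in UNX/DOCA ITF2357 against UNX/DOCA vehicle and 2 against Sham vehicle. Atrial markers summed to 214 to 833 CPM, 224 to 327 CPM and 80.4 to 152 CPM, with 1 of 2 tested markers called higher in UNX/DOCA ITF2357 against Sham vehicle. The other tested marker was below 0 there, and only 2 of the 5 markers had enough counts to test. Erythroid markers summed to 237 to 579 CPM, 161 to 363 CPM and 426 to 535 CPM, and neutrophil markers to 4.58 to 26.4 CPM, 3.78 to 470.2 CPM and 12.98 to 41.8 CPM, with 0 called. The neutrophil sum was highest in UNX/DOCA vehicle replicate 3 (470.2 CPM), followed by replicate 4 of that group (151 CPM). Pericyte markers summed to 720.2 to 851 CPM, 669 to 753 CPM and 686 to 734 CPM, and lymphatic endothelial markers to 102 to 123 CPM, 109.7 to 129 CPM and 95.6 to 121 CPM. T and NK cell, adipocyte, mesothelial and Schwann cell markers overlapped between all 3 groups, at sums of at most 16.2 CPM. The part of these cell types in the members' values was not tested.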

How the data were processed

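RNA came from about 10 mg of left ventricle per animal, and poly(A)-selected directional libraries were read in pairs of 150 bases. The authors deposited whole-number counts per Ensembl gene with no normalization. Per the submitters' processing notes, FastQC 0.11.9 and STAR 2.7.10b were used with the mm39 build; the sources used here name no counting tool, strand setting or annotation, so reads of a gene and its antisense partner cannot be told apart. Symbols and transcript lengths came from GENCODE M21 by gene identifier, and symbols covered 99.17% to 99.43% of each library's counts. The titles, used for grouping, all name ITF2357 for the drug group, while another label field changes its last digits.

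Genes passing filterByExpr (10 counts) were fitted over all 12 libraries with edgeR 4.0.16 in R 4.3.3 (TMM, robust quasi-likelihood F test, 9 residual degrees of freedom, common biological coefficient of variation of 0.187), with Benjamini-Hochberg adjustment over 16981 genes and a threshold of 0.05. An adjusted p with no other tool named (DESeq2 1.42.0, or limma-voom from limma 3.58.1) is from that fit. The standard error of a log2 fold change is its size over the square root of F. The method was tested on simulated data with no outlying library, which cannot show how it behaves where there is one. Replicates are separate animals, and the chi-square per degree of freedom between replicates, 1 for counting error alone, ran from 9.67 to 50.2. Levels between genes are CPM divided by the length of the longest protein-coding transcript. Likeness is the root mean square difference of z-scored log2 CPM (prior count 2) among genes with a symbol and a mean of at least 5 CPM.

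All 10 members were named whatever they showed, as were at most 3 genes with the smallest p per list and comparison and the closest genes by likeness for some members. Members and lists were chosen with earlier results of these data known. Alternatives were other scalings (RLE, upper quartile, library totals), other filters, DESeq2, limma-voom, the 2 compared groups alone, a replicate block, leaving out UNX/DOCA vehicle replicates 3 and 4 at once, and each library left out. For the 8 lists of other matrix genes, the fits with a library left out were added after seeing the data. Shares of genes called by DESeq2 are of 43786 genes with a p-value, an adjusted p that it left as NA not being counted as a call.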

Additional observations from a re-analysis of the deposited data

Results flagged for a closer look

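Among the 30 sets of 4 libraries (10 members in 3 groups), 3 had a library far from the other 3 by Dixon's test, where chance gives about 1 in 20 sets. Col6a6 had 4.71 CPM in UNX/DOCA ITF2357 replicate 2, while the other 3 ITF2357 libraries had 7.28 to 7.58 CPM, and the gap was 0.895 of the group's range. Col8a1 had 44.7 CPM in UNX/DOCA vehicle replicate 1, while the others of that group had 24.1 to 25.5 CPM (gap 0.929 of the range). Col18a1 had 21.9 CPM in UNX/DOCA vehicle replicate 3, while the others had 10.5 to 12.2 CPM (gap 0.849 of the range). The last library is also the one with the highest neutrophil, macrophage and activated fibroblast markers, and the part of those cells in its Col18a1 level was not tested.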

How the results depend on the processing

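Of 660 values of single members under alternatives, 620 kept their direction and side of the threshold, 26 newly passed, 9 lost a call (all Col6a2 in UNX/DOCA ITF2357 against UNX/DOCA vehicle) and 5 turned. Those that turned were Col14a1 in that comparison without UNX/DOCA vehicle replicates 3 and 4 (0.064), Col18a1 there with limma-voom (0.11), without replicates 3 and 4 (0.14) and without replicate 3 (0.18, in a range of -0.22 to 0.18 over single libraries left out), and Col8a1 in UNX/DOCA ITF2357 against Sham vehicle without ITF2357 replicate 2 (-0.078, in a range of -0.078 to 0.31). The cause was not tested. With 4 animals a group and counts as low as 15, Col12a1 is the least precise member.

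For UNX/DOCA vehicle against Sham vehicle, where 0 genes and 0 members passed, 210 genes and 1 member passed with no filter, 554 and 3 with DESeq2, 559 and 3 with limma-voom, 7 genes with upper-quartile scaling and 1 gene without UNX/DOCA vehicle replicates 3 and 4. Leaving out 1 library gave 0 to 380 genes and 0 to 2 members, the highest of both without UNX/DOCA vehicle replicate 1. For UNX/DOCA ITF2357 against UNX/DOCA vehicle (153 genes, 1 member), 352 and 2 passed with no filter, 861 and 4 with DESeq2, 239 genes with limma-voom, 5 and 0 with the 2 groups alone, and 12 and 0 without UNX/DOCA vehicle replicates 3 and 4. Leaving out 1 library gave 14 (without ITF2357 replicate 1) to 243 genes (without UNX/DOCA vehicle replicate 1) and 0 to 3 members, 3 being without UNX/DOCA vehicle replicate 2. For UNX/DOCA ITF2357 against Sham vehicle (298 genes, 0 members), 1 member passed with no filter, 1068 genes and 1 member with DESeq2, 1528 and 3 with limma-voom, 475 and 1 with the 2 groups alone, and 481 and 1 without UNX/DOCA vehicle replicates 3 and 4. Leaving out 1 library gave 17 (without Sham vehicle replicate 1) to 616 genes and 0 to 2 members, the highest of both without UNX/DOCA vehicle replicate 3.

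The labels used here state no pairing of animals by replicate number. Over 12 pairs of libraries with the same number, deviations from group means correlated from -0.19 to 0.25. In 6 of 24 combinations of a library with another group its own number correlated best. With 4 libraries a group, these values cannot show whether animals were matched. With the replicate number as a block, 31, 68 and 192 genes passed in the 3 comparisons in the same order, and 0 members in the second, Col6a2 having an adjusted p of 0.0572.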
